A study of Mus musculus with 4 samples.

Results

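Transcripts of the NF-kappaB subunits and of the proteins that hold them in check were followed in subclones of a mouse hybridoma that differ in how often they change antibody class. The genes were taken by symbol from the platform annotation of the array: of 10 genes listed, 9 had at least 1 probe set, and they had 19 probe sets among the 45037 tested. These were Nfkb2 (2 probe sets), Rel (1), Rela (1), Relb (1), Nfkbia (5), Nfkbib (2), Nfkbie (2), Nfkbiz (3) and Tnfaip3 (2). Nfkb1 was not analysed here.

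The subclones all derive from hybridoma 36-65, an antibody-secreting line that arises from fusion of a B cell with a myeloma cell, and no treatment is named for any of them. The high switching class, whose class switching in culture the labels call spontaneous, held subclones H23 (replicate 1) and H27 (replicate 2). The low switching class held subclones L25 (replicate 1) and L27 (replicate 2). Each subclone gave total RNA for 1 Affymetrix array, so n = 2 for each class, and each value stands for 1 clone. The p-values speak of the spread among these 4 subclones alone, and precision is limited by the small number of arrays.

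NF-kappaB is a family of dimeric transcription factors that share a Rel homology domain. In resting cells the dimers are kept in the cytoplasm by IkB proteins with ankyrin repeats. Receptor signals activate the IKK kinases, which mark IkB proteins for destruction in the canonical route, or trigger processing of the p100 precursor in the non-canonical route. In B cells the routes act downstream of CD40, BAFF and antigen receptors, and NF-kappaB takes part in the transcription of unrearranged heavy chain constant regions before class switching. Several inhibitors are themselves NF-kappaB target genes and close a negative feedback loop.

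No transcript of the family passed the test between the classes. Values below are log2 intensities, differences are high minus low switching, and a probe set was called when its limma p, adjusted by Benjamini-Hochberg over all probe sets, was under 0.05. Limma called 0 of the 19 probe sets, against 3.59% of all probe sets, and the smallest adjusted p among them was 0.136 (Nfkbib). At an unadjusted p under 0.05 there were 6 of 19 (1 higher, 5 lower), against 18.6% of all probe sets. Both arrays of a class lay beyond both of the other class for 10 of the 19, 5 in each direction, against 47.3% of all probe sets. Among all probe sets with a mean of at least 7, these shares were 35.5% and 63.5%, though several of the 19 were dimmer than that. The shares of the 19 rest on probe sets of which several report the same gene. The median difference of the 19 was -0.21, and that of all probe sets was 0.01. Intervals are at 95% without adjustment, so an interval may leave out 0 where the adjusted p misses the threshold.

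**Figure D1:**
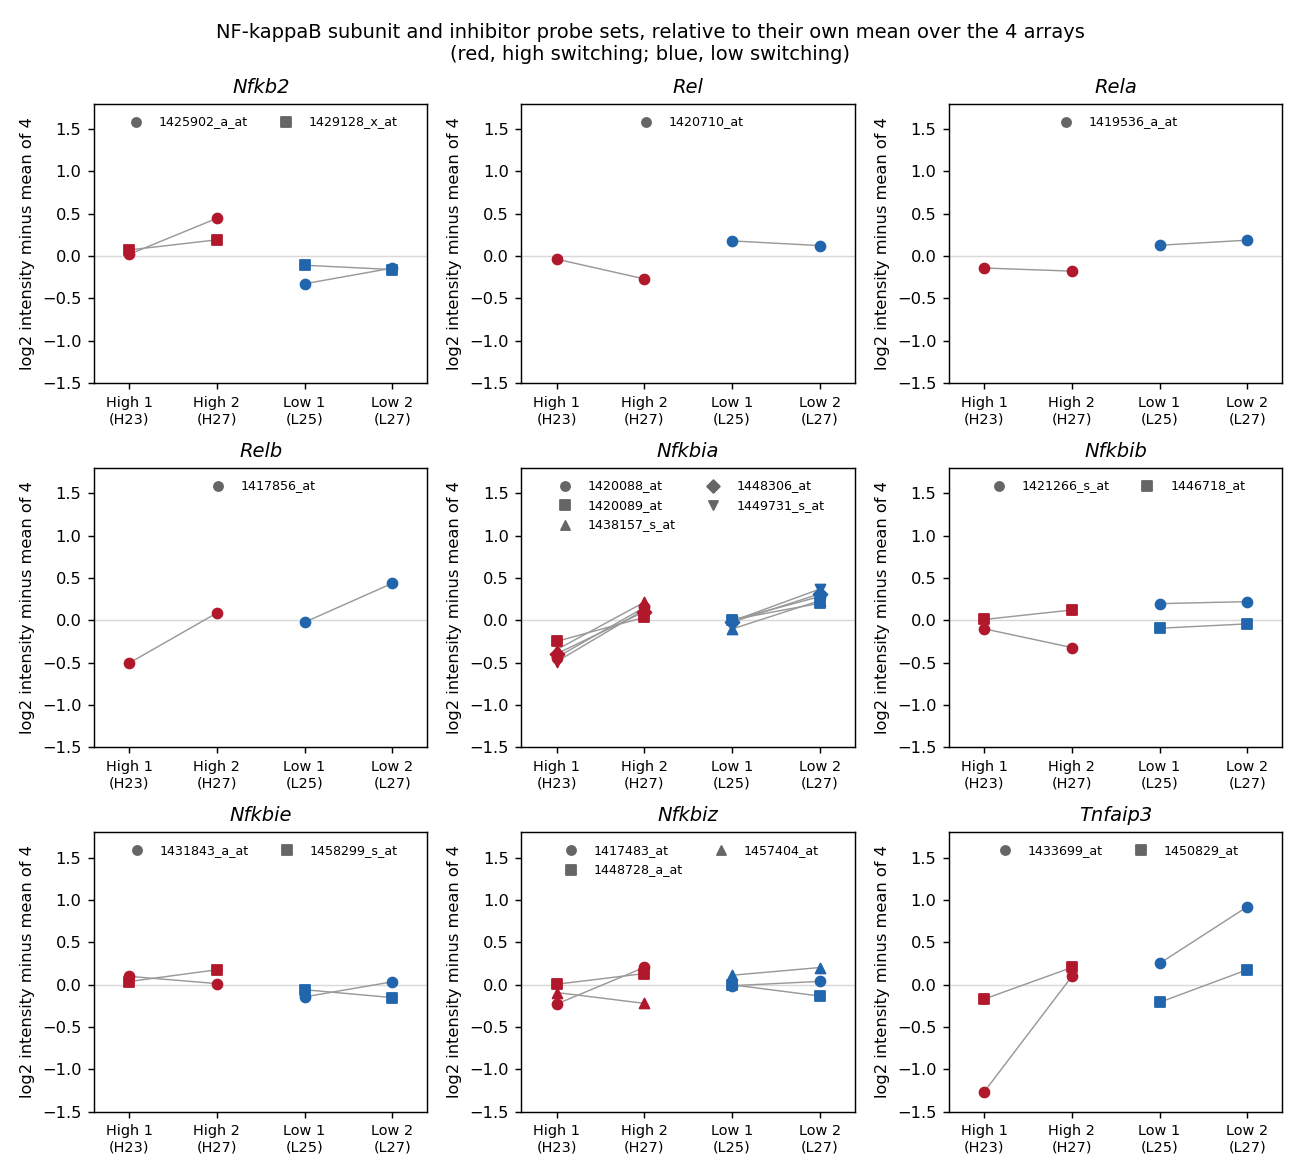
Log2 intensity of each probe set (vertical axis, after subtraction of its own mean over the 4 arrays) in the high switching subclones H23 and H27 (red) and the low switching subclones L25 and L27 (blue), with 1 panel for each gene and 1 marker shape for each probe set; grey lines join the points of a probe set within a class. The 5 Nfkbia probe sets follow the same course as Relb, with H23 lowest and L27 highest, while Nfkb2 lies higher and Rela lower in both high switching subclones.

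Among the subunits, Nfkb2 encodes p100, the precursor of p52 and an inhibitor of RelB in the non-canonical route. On its brighter probe set (1425902_a_at) it had 8.15 and 8.57 in the high switching subclones, against 7.80 and 7.99 in the low switching subclones. The classes did not overlap, and the difference was 0.47 ± 0.17 (SE), with an interval from 0.06 to 0.88 and a limma adjusted p of 0.21. The other probe set (1429128_x_at), whose name marks possible matches to further transcripts, had 7.88 and 7.998 against 7.70 and 7.65. Its difference was 0.27 ± 0.11 (limma adjusted p = 0.272). Nfkb2 was the only subunit analysed whose difference was above 0. Without high switching replicate 1 the difference on the brighter probe set was 0.68, and without high switching replicate 2 it was 0.25, neither past the threshold.

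Genes beside Nfkb2 on chromosome 19 mostly had positive differences too. Of the 20 measured genes on each side of it, 37 of 40 had a positive difference, 12 were called higher and 0 lower. Their median was 0.45, with quartiles of 0.19 and 0.73. After this median was subtracted, Nfkb2 stood at 0.02 and -0.18 on its probe sets. For the other members the same median of 40 neighbouring genes lay between -0.17 (Nfkbiz) and 0.01 (Nfkbia). Rela, also on chromosome 19 but among other genes, had a neighbour median of -0.16 and 12 of 40 neighbours with a positive difference. Btrc, which encodes the ubiquitin ligase subunit that recognises phosphorylated IkB proteins, is among the 40 neighbours of Nfkb2 and is described with the pathway below. The part that this stretch plays in the value of Nfkb2 was not tested.

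**Figure D2:**
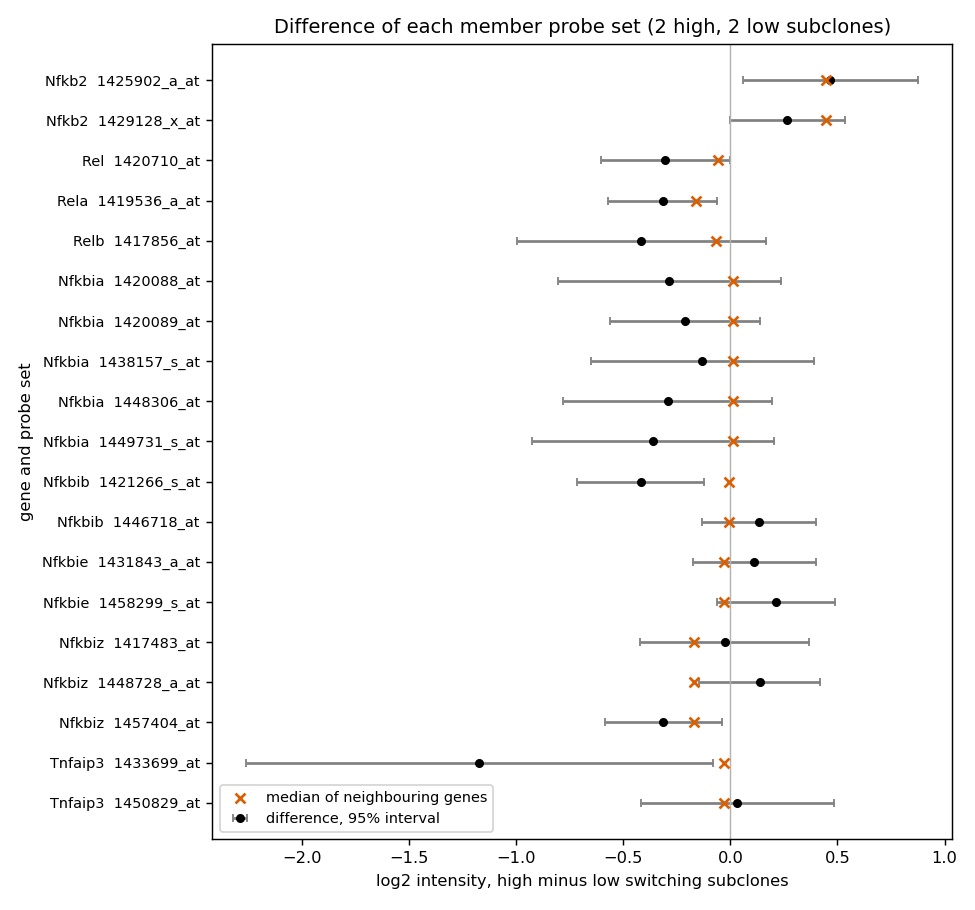
Difference in log2 intensity, high minus low switching (horizontal axis), of each of the 19 probe sets (rows), with 95% intervals from limma, and the median difference of the 40 neighbouring genes as crosses. The crosses of Nfkb2 lie at 0.45, with its own points at 0.47 and 0.27, while the crosses of the other genes lie between -0.17 and 0.01.

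The promoter of Nfkb2 is shown because NF-kappaB genes can be targets of their own factors and because this gene alone of the 4 subunits had a difference above 0. The sequence is from RefSeq (GRCm38.p6, plus strand), at chr19:46304487-46304786, from 250 bases before to 50 after a transcript start. Capitals mark matches on either strand to the NF-kappaB consensus, which runs GGG, a purine, any base, A or T, a pair of pyrimidines and CC, with overlapping matches joined into 1 site.
Nfkb2: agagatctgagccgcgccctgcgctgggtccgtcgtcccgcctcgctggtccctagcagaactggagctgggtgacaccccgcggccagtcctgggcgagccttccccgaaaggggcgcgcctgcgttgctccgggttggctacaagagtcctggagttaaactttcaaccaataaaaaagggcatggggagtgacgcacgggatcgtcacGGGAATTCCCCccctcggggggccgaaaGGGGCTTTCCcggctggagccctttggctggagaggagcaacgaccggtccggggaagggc
This window held 2 sites, GGGAATTCCCC and GGGGCTTTCC, which begin at positions -39 and -11 relative to the start. The other Nfkb2 windows held 2 sites and 1 site, but they overlap each other, and GGGACTTTCC is the same site in both.

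Rela and Rel encode p65 and c-Rel, the subunits with transactivation domains that act in the canonical route, and both had lower values in both high switching subclones. Rela had 9.37 and 9.33 in the high switching subclones, against 9.64 and 9.70 in the low switching subclones. The classes did not overlap and the spread within each was small (SD 0.03 and 0.04). The difference was -0.32 ± 0.11 (SE), with an interval from -0.57 to -0.06 and an adjusted p of 0.18 by limma. After subtraction of the median of its neighbouring genes it was -0.16. Rel had 6.50 and 6.26 against 6.71 and 6.66, again with no overlap, a difference of -0.30 ± 0.12 (limma adjusted p = 0.265). Neither passed after adjustment, and the interval of Rel reached down to -0.61.

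Relb encodes RelB, the partner of p52 in the non-canonical route. It had 6.12 and 6.71 in the high switching subclones, against 6.60 and 7.06 in the low switching subclones, so the classes overlapped. The difference was -0.42 ± 0.24 (SE; limma adjusted p = 0.436), and its interval ran from -0.997 to 0.16. It depended on single arrays: it was -0.12 without H23, -0.71 without H27, -0.65 without L25 and -0.19 without L27.

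Of the inhibitors, Nfkbia encodes IkB-alpha, the rapidly degraded and rapidly resynthesised inhibitor of p65 and c-Rel dimers. Its brightest probe set (1420088_at) had 11.43 and 12.02 in the high switching subclones, against 11.87 and 12.15 in the low switching subclones. Next in brightness, 1438157_s_at had 10.87 and 11.43 against 11.11 and 11.45. The classes overlapped on all 5 probe sets, in each of which H23 was lowest, L25 next, then H27, and L27 highest. The differences ran from -0.36 ± 0.23 (1449731_s_at) to -0.13 ± 0.21 (1438157_s_at), and limma adjusted p-values from 0.493 to 0.833. Over the 5 probe sets the intervals reached from -0.92 to 0.39. With the arrays left out in turn, the difference ran from -0.67 to -0.05 on 1449731_s_at, from -0.54 to -0.04 on 1448306_at, from -0.35 to -0.07 on 1420089_at, from -0.58 to 0.00985 on 1420088_at and from -0.41 to 0.15 on 1438157_s_at. Probe sets of this gene report the same transcripts and are no replicates of each other.

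Nfkbib (IkB-beta, a slower inhibitor of the same dimers) had 9.05 and 8.83 in the high switching subclones, against 9.35 and 9.37 in the low switching subclones, on 1421266_s_at. These values did not overlap, and the difference of -0.42 ± 0.12 (interval from -0.71 to -0.12) was the one nearest to the threshold (limma adjusted p = 0.136). Its other probe set (1446718_at) lay between 4.19 and 4.41 on all arrays, under the array median each time, and had a difference of 0.13. Nfkbie (IkB-epsilon) was dimmer than the array median on both its probe sets and all arrays, between 3.75 and 4.31, a range in which intensity may not follow transcript amount. Its differences were 0.11 and 0.21, and no size can be given for this gene.

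Nfkbiz encodes IkB-zeta, a nuclear protein that works with p50 on secondary response genes. On 1417483_at it had 6.46 and 6.89 in the high switching subclones, against 6.68 and 6.73 in the low switching subclones, with overlap and a difference of -0.03. The other probe sets pointed in opposite directions, at 0.14 (1448728_a_at) and -0.31 (1457404_at), and 1457404_at was dim at 5.03 to 5.45. Their limma adjusted p-values were 0.627 and 0.21, so no direction can be given for Nfkbiz.

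Tnfaip3 encodes A20, a ubiquitin-editing enzyme that shuts off signalling above the IKK kinases. It had the largest difference of the family on 1433699_at, with 5.62 and 6.98 in the high switching subclones, against 7.14 and 7.81 in the low switching subclones. Both high switching values lay under both low switching values, with H23 far below the rest. The difference was -1.17 ± 0.45 (SE), with an interval from -2.26 to -0.08 and a limma adjusted p of 0.236. It was -0.49 without high switching replicate 1 and -1.85 without high switching replicate 2 (limma adjusted p = 0.0554). On its other probe set (1450829_at) the values were 5.74 and 6.12 against 5.70 and 6.09, a difference of 0.03 ± 0.18, so the probe sets of Tnfaip3 disagreed on the class difference. The values on 1450829_at and that of H23 on 1433699_at were not far above the array medians (5.25 to 5.30), so these sizes are approximate.

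For Tnfaip3 (1433699_at), Relb and Nfkbia, the high switching subclones differed from each other by more than the classes did. High switching replicate 2 exceeded replicate 1 by 1.36 for Tnfaip3 (1433699_at), by 0.59 for Relb and by 0.28 to 0.61 for Nfkbia. In the low switching class, replicate 2 exceeded replicate 1 by 0.67, 0.46 and 0.20 to 0.38 for the same genes. A gap in the high switching pair at least as wide as that of Tnfaip3 on 1433699_at was found in 0.0799% of all probe sets. For Relb this share was 2.35%, and for the Nfkbia probe sets it ran from 2.04% to 18.9%. In the low switching pair these shares were 1.25% for Tnfaip3 (1433699_at), 5.02% for Relb and 9.01% to 33.4% for Nfkbia. On 1450829_at, Tnfaip3 had gaps of 0.37 and 0.39 in the high and low switching pairs, with shares of 10.1% and 8.64%. All these shares are over all probe sets, dim ones included, and none was computed among probe sets of like brightness.

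The order H23, L25, H27, L27 from low to high, a pattern picked after seeing the values, held for 6 of the 19 probe sets (the 5 of Nfkbia and that of Relb) and for 2.48% of all probe sets. By gene it held for 2 of 9. The next pattern was also picked after seeing the values. Replicate 2 was higher than replicate 1 in both classes for 11 of the 19, against 23.3% of all probe sets. Besides the 8 of Tnfaip3, Relb and Nfkbia, these were Nfkb2 (1425902_a_at, by 0.43 and 0.19), Nfkbiz (1417483_at, by 0.43 and 0.05) and Nfkbib (1446718_at, by 0.11 and 0.05). Rela (-0.04 and 0.06) and Rel (-0.23 and -0.06) were among the 8 that were not. On the brightest probe set of each gene, replicate 2 was higher in both classes for 5 of 9 genes, against 22.7% of all genes. The labels do not say that subclones with the same replicate number belong together across classes. Mean levels of the hybridization controls, which mark the handling of the array and not the RNA of the cells, were 10.79 and 11.23 in H23 and H27, against 11.32 and 10.72 in L25 and L27. They were thus higher in H27 than in H23 but lower in L27 than in L25. With no second array for any subclone, differences between subclones and between arrays cannot be told apart.

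**Figure D3:**
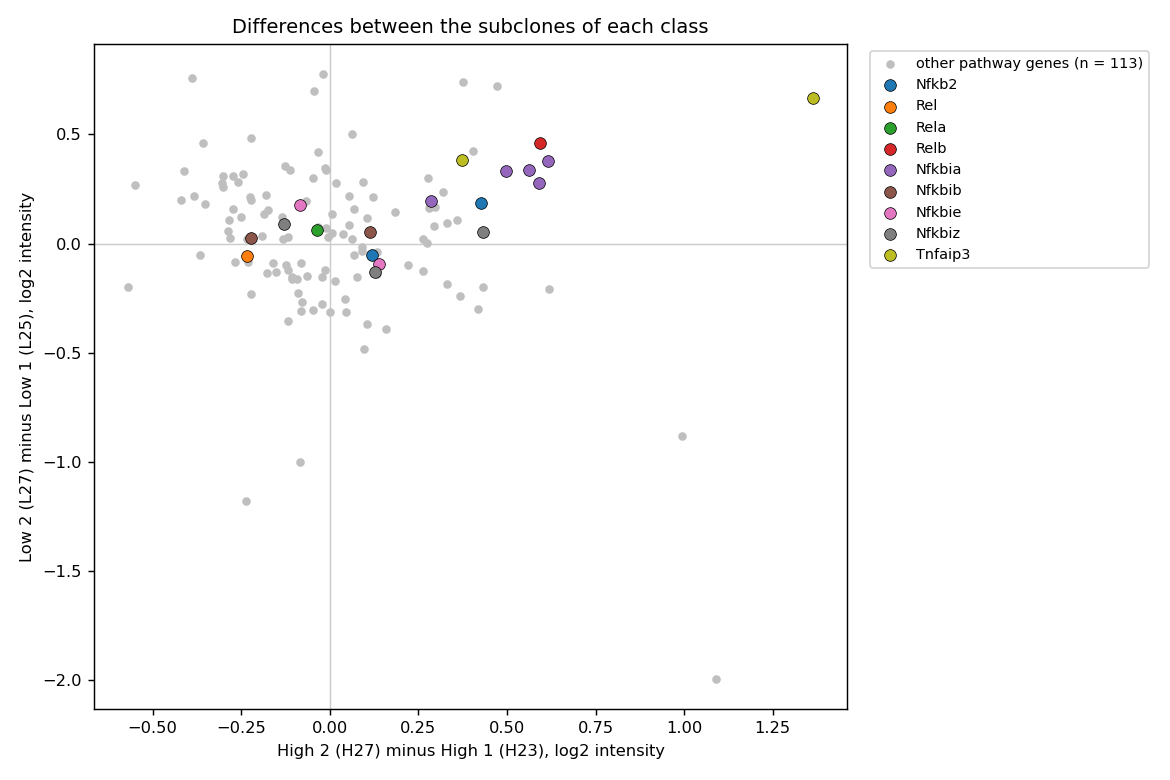
Difference between the subclones of each class in log2 intensity, H27 minus H23 (horizontal axis) against L27 minus L25 (vertical axis), for the 19 probe sets (coloured by gene) and for 113 other pathway genes (grey). Both Tnfaip3 probe sets, Relb and the 5 Nfkbia probe sets lie to the upper right, with the first Tnfaip3 probe set at 1.36 and 0.67.

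The promoters of Nfkbia and Tnfaip3 are shown because both genes encode feedback inhibitors and were higher in replicate 2 than in replicate 1 of each class. Both are from RefSeq (GRCm38.p6, minus strand, printed in the direction of transcription), at chr12:55492598-55492897 and chr10:19015361-19015660, with the consensus matches in capitals as above.
Nfkbia: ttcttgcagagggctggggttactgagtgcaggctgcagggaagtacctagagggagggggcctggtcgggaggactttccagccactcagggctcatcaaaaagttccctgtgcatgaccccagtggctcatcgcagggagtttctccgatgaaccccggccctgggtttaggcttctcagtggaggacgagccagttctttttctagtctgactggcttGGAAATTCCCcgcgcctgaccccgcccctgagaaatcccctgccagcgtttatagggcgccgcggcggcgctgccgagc
Tnfaip3: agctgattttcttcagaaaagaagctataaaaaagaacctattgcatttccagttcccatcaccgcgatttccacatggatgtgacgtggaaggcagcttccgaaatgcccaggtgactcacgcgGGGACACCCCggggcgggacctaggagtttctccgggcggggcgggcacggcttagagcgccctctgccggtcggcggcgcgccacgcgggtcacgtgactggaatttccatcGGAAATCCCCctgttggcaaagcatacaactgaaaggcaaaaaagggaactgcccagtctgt
The Nfkbia window held 1 site, GGAAATTCCC, which begins at position -29 relative to the start. The Tnfaip3 window held 2, GGGACACCCC and GGAAATCCCC, which begin at positions -125 and -12, and a second Tnfaip3 window held 0. RefSeq windows were found for 7 of the 9 genes, 10 windows in all. Of these, 7 (of Nfkb2, Rel, Nfkbia, Nfkbie and Tnfaip3) held the consensus, against 4.51% of all 32851 windows of 300 bases. By gene this was 5 of 7, and no share by gene was computed over all genes. The windows are not independent, as some are of the same gene and overlapping Nfkb2 windows share a site. A looser motif of GGG, any 5 bases and CC, on either strand, was in 9 of the 10 windows and in 50.8% of all windows. These are matches of letters, and no binding was measured.

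Signalling genes around the family were read from 6 lists (122 genes, 113 measured) that were put together with earlier results of these data known, with the brightest probe set for each gene. Limma called 6 higher and 5 lower in high switching subclones, while of all 18193 genes 2.04% were called higher and 2.78% lower. The median difference over the 113 genes was 0.01, as over all genes (0.01).

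Of 24 receptors that feed NF-kappaB, 2 rose and 2 fell, with a median of 0.01. Cd40, the receptor for T cell help that starts both routes, had 8.63 and 8.21 in the high switching subclones, against 6.64 and 6.84 in the low switching subclones. The difference was 1.68 ± 0.17 (SE; limma adjusted p = 0.0104), all 3 of its probe sets passed, and the call ended only without low switching replicate 1 (limma adjusted p = 0.0628) among the single arrays left out. Tlr4, the receptor for bacterial lipopolysaccharide, had 5.79 and 5.71 against 8.22 and 7.22, a difference of -1.97 ± 0.31 (limma adjusted p = 0.0309), and 2 of its 4 probe sets passed. Cd79b, a signalling chain of the antigen receptor, rose by 0.77, and Tnfrsf17, the plasma cell receptor BCMA, fell by 0.71. Tnfrsf13c, the BAFF receptor that leads to p100 processing, had a difference of 0.63 ± 0.15 (limma adjusted p = 0.085). Of 10 ligands measured, limma called 0, and 1 had an unadjusted p under 0.05.

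Of 11 kinases measured, 0 rose and 1 fell, with a median of 0.10. The fall was in Ikbke (a kinase related to the IKK subunits), at -0.55 ± 0.10 with a limma adjusted p of 0.0495, but all 4 values were between 4.53 and 5.11, all dimmer than the array median. Ikbkb, the catalytic subunit of the canonical route, had 9.92 and 9.78 in the high switching subclones, against 9.69 and 9.81 in the low switching subclones. Its difference of 0.10 had an interval from -0.18 to 0.38. Ikbkg, the regulatory subunit NEMO, and Map3k14, the kinase NIK of the non-canonical route, had differences of 0.17 ± 0.15 and 0.18 ± 0.12. Chuk and Traf3 were not analysed here.

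Of 27 adaptors and ubiquitin enzymes, 2 rose and 0 fell, with a median of 0.07. Birc2, the ligase cIAP1 that keeps NIK low in resting cells, had 10.31 and 10.59 in the high switching subclones, against 9.20 and 9.50 in the low switching subclones, a difference of 1.10 ± 0.16 (SE; limma adjusted p = 0.0253). Btrc, beside Nfkb2, had 7.75 and 7.70 against 6.84 and 7.14, a difference of 0.74 ± 0.14 (limma adjusted p = 0.0456), and 1 of its 5 probe sets passed. The related ligase gene Birc3 (0.61 ± 0.16), the deubiquitinase gene Cyld (0.45 ± 0.11) and Traf2, a partner of the cIAP proteins (-0.15 ± 0.12), did not pass.

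Of 12 further IkB-like proteins and nuclear cofactors, 0 rose and 1 fell, with a median of -0.25. The fall was in Pdlim2, a nuclear ligase that promotes the degradation of p65, with 7.81 and 7.62 in the high switching subclones, against 8.72 and 8.76 in the low switching subclones. The difference was -1.03 ± 0.12 (SE; limma adjusted p = 0.0146). Bcl3, a nuclear IkB protein that joins p50 and p52 dimers, overlapped between classes, with 9.06 and 8.67 against 8.06 and 8.82. Nfkbid, which encodes the nuclear protein IkB-NS, had a difference of -0.14 ± 0.13.

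Of 39 target genes measured, 4 rose and 1 fell, with a median of 0.04. Besides Cd40 and Birc2, the adhesion molecule gene Icam1 rose by 1.31 ± 0.20, with 8.57 and 8.21 in the high switching subclones, against 6.85 and 7.31 in the low switching subclones. Junb, an AP-1 subunit gene, rose by 1.01 ± 0.16, and Bcl2l1, which encodes the survival protein Bcl-xL, fell by 0.82 ± 0.13. Traf1, often used as a readout of NF-kappaB, was dimmer than the median on all arrays and had a difference of 0.07. The feedback genes Nfkbia, Tnfaip3 and Relb, targets of the factor too, were not called, and their differences were below 0 except on 1 Tnfaip3 probe set. Whether target genes and feedback genes differ in their response was not tested. Some calls in these lists ended under other settings. With a variance trend, the limma adjusted p was 0.0576 for Btrc, 0.0522 for Ikbke and 0.052 for Tnfrsf17, and with a robust trend 0.0549 for Btrc and 0.0515 for Ikbke. A further quantile normalization gave Tnfrsf17 an adjusted p of 0.054 by limma, and without probe sets that may match several transcripts Ikbke had 0.0523. Calls also rested on single arrays. Without high switching replicate 1 there were 1 higher (Cd40) and 1 lower (Pdlim2), without high switching replicate 2 there were 1 (Cd40) and 0, without low switching replicate 1 there were 0 and 1 (Tlr4), and without low switching replicate 2 there were 4 (Cd40, Icam1, Junb and Fas) and 1 (Tlr4).

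**Figure D4:**
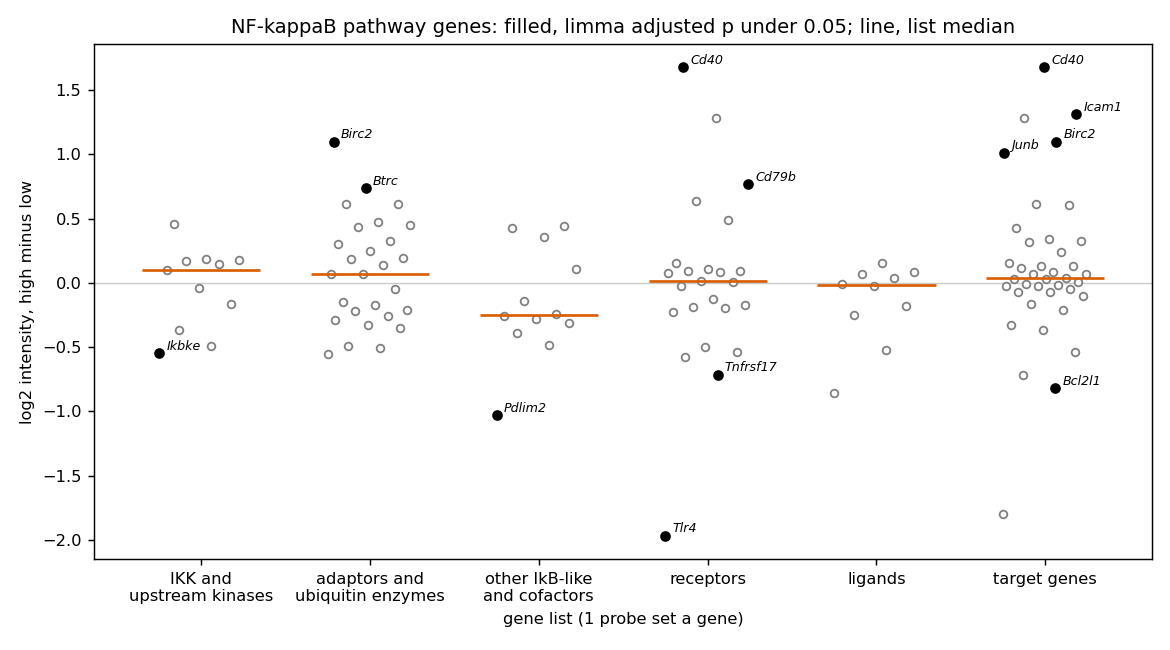
Difference in log2 intensity, high minus low switching (vertical axis), of each measured gene in the 6 pathway lists (horizontal axis), with called genes filled and named and the list median as a line. List medians lie between -0.25 and 0.10, and Cd40, at 1.68, is the highest point of the receptors and of the target genes, in both of which it is listed.

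All 4 arrays had medians between 38.1 and 39.3 on the linear scale. Of 14 B cell and plasma cell markers measured, Jchain, Pou2af1, Mzb1, Xbp1, Irf4 and Sdc1 were above 12 on every array. Cd79a and Cd22 were dimmer than the array median throughout. Of the rest, Ms4a1 and Cd79b lay between 11.01 and 11.85, and Prdm1 between 10.9 and 12.1. Tnfrsf17 and Derl3 lay between 8.43 and 9.32, and Pax5 between 5.19 and 5.55. Limma called 1 of the 14 higher (Cd79b) and 2 lower (Xbp1 and Tnfrsf17), and the summed intensity was 73376 to 79291 in the high and 77643 to 82071 in the low switching subclones. Of 10 T cell markers 0 were called (1 at an unadjusted p under 0.05 by limma), with sums of 807 to 834 against 826 to 842. Of 11 myeloid markers Itgam fell (-1.38), with sums of 1602 to 1744 against 1355 to 1526. Cd68, the brightest myeloid marker, weighed most in the myeloid sums and was not called (limma adjusted p = 0.109). It had 10.35 and 10.17 in the high switching subclones, against 9.58 and 9.86 in the low switching subclones. Of 10 fibroblast markers Lum rose (1.21), with sums of 309 to 313 against 254 to 273. The array gives no value of 0, and 2, 6 and 6 of these T cell, myeloid and fibroblast markers were dimmer than the median on all arrays. Their part in any difference was not tested.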

How the data were processed

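Total RNA from 4 subclones was measured on 1 Affymetrix array each. The deposited intensities are linear and were made by the authors with RMA (background correction, normalization between arrays and summary of probes), per the submitters' processing notes, which give no version. This method compresses differences between dim values. A log2 transform was taken first. Without 64 controls, 45037 of 45101 probe sets were tested, unfiltered. The platform annotation gave 1 gene symbol for 34945 of them, of which 34741 matched RefSeq GRCm38.p6. No source used here gives the authors' build, so that table served for names and neighbours only, and printed sequences carry the coordinates of their own build.

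High minus low switching was tested with limma 3.58.1 (lmFit, eBayes, two-sided) in R 4.3.3 over all probe sets. The exact permutation test of 2 against 2 arrays cannot go below 0.333. In lists each gene was read from its brightest probe set (18193 genes). The steps were tested on simulated data. All listed members were named, with the called genes of each list (at most 6) and a fixed set of IKK, TRAF, IkB and receptor genes; Fas is outside that rule and was named after its values were seen. Members, lists and tests were chosen with earlier results of these data known. Alternatives were other variance models, filters, normalizations, probe set choices, a minimum fold of 1.5, the hybridization control level as a block, subtraction of neighbouring genes, and each array left out. Figures used matplotlib 3.10.9.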

Additional observations from a re-analysis of the deposited data

How the results depend on the processing

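None of the 19 probe sets of the family was called in the 13 alternatives with a test, where their adjusted p-values ran from 0.0554 upwards. The difference itself can change in 6 of these (the other normalizations and the arrays left out), and there 107 of 114 values kept their direction. The 7 that reversed were Tnfaip3 (1450829_at) at -0.00425 with cyclic loess and at -0.15 and -0.16 without high switching replicate 2 and without low switching replicate 1, Nfkbia at 0.00985 (1420088_at) and 0.15 (1438157_s_at) without high switching replicate 1 and at 0.04 (1438157_s_at) without low switching replicate 2, and Nfkbiz (1417483_at) at 0.19 without high switching replicate 1. With 1 array left out, these 4 ranged from -0.16 to 0.22 (Tnfaip3), from -0.58 to 0.00985 and from -0.41 to 0.15 (Nfkbia) and from -0.24 to 0.19 (Nfkbiz). With neighbouring genes subtracted, which gives a value with no test, Nfkb2 stood at 0.02 and -0.18, Rela at -0.16, and Nfkbiz at 0.14 (1417483_at), 0.31 (1448728_a_at) and -0.14 (1457404_at).

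All probe sets called numbered 674 higher and 944 lower. With a minimum fold of 1.5 there were 59 and 104, and with the hybridization control block 58 and 94. Without _x_at, _s_at and _a_at probe sets, fewer were tested and 463 were called higher and 684 lower. With 1 array left out, calls ranged from 112 to 253 higher and from 196 to 329 lower. Of the pathway genes, 6 higher and 5 lower became 8 and 7 when each gene was averaged over its probe sets, 0 and 0 with the minimum fold, 1 (Cd40) and 0 with the hybridization control block, and 0 to 4 higher and 0 to 1 lower with 1 array left out. The cause was not tested, except that fewer arrays and a block leave fewer degrees of freedom. A lone array in a class was assumed to vary like the others. No paired analysis was made. The names H27 and L27 share a number, but the labels do not say that it pairs them, and H23 and L25 share none.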

Other observations

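Outside the family, 5 of the 113 pathway genes had the order of subclones seen for Nfkbia and Relb (H23, L25, H27, L27 from low to high), against 2.22% of all genes. They were Tab2, an adaptor of the kinase TAK1, Map3k8, a kinase bound and restrained by the p105 precursor, the adaptor gene Traf5, the ligase gene Rnf31 (HOIP) and the ligand gene Tnfsf14. Tnfsf14 was dimmer than the array median on 3 of the arrays, and Tab2 was close in L25 and H27, at 11.235 and 11.259. Map3k8 had 5.997 and 6.47 in the high switching subclones, against 6.24 and 6.96 in the low switching subclones, and Traf5 had 8.86 and 9.27 against 9.03 and 9.45. Both were named after their values were seen, as were the other 3. Limma called none of the 5, with adjusted p-values from 0.531 (Rnf31) to 0.736 (Traf5). Fas, a death receptor gene and NF-kappaB target, had 5.93 and 6.31 against 4.47 and 5.21, a difference of 1.28 ± 0.26 (SE; limma adjusted p = 0.058), but both low switching values were dimmer than the array median, so the size is approximate.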
